A study of Mus musculus with 6 samples.

Results

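The Hippo pathway and its output were followed here through 8 genes: the target genes Ccn1 (also called Cyr61) and Ccn2 (also called Ctgf), the coactivator genes Yap1 and Wwtr1 (which encodes TAZ), their DNA-binding partner Tead1, the feedback genes Amotl2 and Lats2, and the TEAD cofactor gene Vgll4. They were chosen by name and found by NCBI gene ID. All 8 were among the 18019 rows of the table and among the 11422 genes that were tested, those with a mean of at least 1 FPKM (fragments scaled to gene length and library depth). Messenger RNA was measured in heart tissue of wild-type mice 8 weeks after transverse aortic constriction (TAC), which narrows the aorta and overloads the left ventricle. In the 3 VNS-TAC libraries the mice carried a viral construct for the light-gated channel ChR2 (H134R) joined to GFP, driven by the ChAT promoter and delivered to the DVMN, the brainstem nucleus of the vagal preganglionic neurones. The library names of this group also hold the term 10 Hz, which the labels do not explain further. In the 3 Ctrl-TAC libraries the virus carried GFP alone under the same promoter. Both groups had undergone TAC, so the comparison asks what vagal activation does in an overloaded heart and holds no unloaded heart. The construct went to the brainstem, so no gene measured in the heart checks the labels. The labels used here state no strain, age, sex or pooling of animals.

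The Hippo pathway is a kinase cascade in which the kinases encoded by Stk3 and Stk4 activate those of Lats1 and Lats2, and these phosphorylate YAP and TAZ and keep them out of the nucleus. When the kinases are less active, YAP and TAZ enter the nucleus, bind TEAD factors and switch on genes such as Ccn1, Ccn2, Ankrd1 and Amotl2. In the heart the pathway restrains cardiomyocyte growth and takes part in the response of fibroblasts to stretch. The activity of YAP and TAZ is set mainly by phosphorylation and by the location of the proteins, which RNA does not measure. Ccn1 and Ccn2 can also be induced quickly through other factors, among them SRF.

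TEAD factors bind the letters GGAATG, which read CATTCC on the opposite strand. The sites are shown because the same letters stand near the start sites of some genes that encode the pathway and of some that answer to it. They come from the RefSeq promoter windows of GRCm38.p6, which run from 250 bases before a start site to 50 after it. Each is written 5′ to 3′ on the strand of its gene with 12 bases on either side, and the capitals mark the motif.
Ccn1, chr3:145650071-145650100, minus strand: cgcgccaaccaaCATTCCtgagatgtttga
Amotl2, chr9:102717727-102717756, plus strand: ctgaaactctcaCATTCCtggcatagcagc
Lats2, chr14:57746102-57746131, minus strand: cgtgacgcccgtGGAATGccaacaatgtag
Yap1, chr9:8004720-8004749, minus strand: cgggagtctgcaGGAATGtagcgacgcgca
Wwtr1, chr3:57576029-57576058, minus strand: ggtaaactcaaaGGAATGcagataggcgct
Vgll4, chr6:114969268-114969297, minus strand: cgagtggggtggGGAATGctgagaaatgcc
The motif begins 103 bases before the start site in Ccn1, 65 in Amotl2, 82 in Vgll4 and 141 in Yap1. In Wwtr1 it begins 170 bases before the more downstream of its 2 listed start sites. In Lats2 it lies 4 bases after the first base of one transcript. Each of the 6 genes with an entry in the promoter table, those shown, held the motif in at least 1 of its windows, on one strand or the other. The other window of Lats2 did not hold it. Of all 32851 windows 14.7% held it, and of all 27025 genes with a window 16.6%. Of 22 listed YAP and TAZ targets, 15 had a window and 7 of these (46.7%) held the motif, Ccn1, Amotl2 and Lats2 among them. Of the listed Hippo kinase and adaptor genes with a window, 4 of 21 (19.0%) held it, close to the share of all genes. It was 7 of 16 (43.8%) for upstream and junction inputs and 6 of 8 (75.0%) for YAP, TAZ, TEAD and VGLL factors. These lists hold some of the 8 genes too. No window of the 6 genes held the AP-1 motif TGANTCA (7.81% of all windows) or a CArG box, which SRF binds (1.63%). These are letters in a window, and binding was not measured.

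The depth of the libraries, estimated from the steps between low FPKM values, was about 13730000 to 15590000 fragments. The 8 genes then rested on about 680 fragments (Vgll4, lowest library) to about 20000 (Ccn2, highest library), and counting error alone was at most about 3.8% of a value. The 3 Ctrl-TAC libraries correlated across genes at 0.988 to 0.992, and the VNS-TAC libraries with each other at 0.941 to 0.979, VNS-TAC 1 and VNS-TAC 3 being the furthest apart. The cardiomyocyte genes Tnnt2, Myh6 and Actc1 stood between 2667 and 15154 FPKM in all 6 libraries. Both ends of that range came from VNS-TAC 3, with Tnnt2 at 15154 FPKM and Actc1 at 2667. The controls held 7014 to 7657 FPKM of Tnnt2 and 9024 to 10501 FPKM of Actc1. VNS-TAC libraries are numbered as in the table. No gene of the 11422 passed an adjusted p of 0.05 in limma, and 15.0% had an unadjusted p under 0.05, 11.3% lower and 3.79% higher in VNS-TAC. In bulk tissue, fewer cells of a type and less RNA per cell cannot be told apart.

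Ccn1 encodes a secreted matricellular protein that binds integrins. It lies on chromosome 3 from 145646971 to 145649985 (GRCm38). The Ctrl-TAC libraries 1, 2 and 3 held 94.6, 108.8 and 126.7 FPKM of it, and the VNS-TAC libraries 1, 2 and 3 held 91.1, 35.7 and 31.6 FPKM. The groups did not overlap, but VNS-TAC 1 lay just under the lowest control, and VNS-TAC 2 and VNS-TAC 3 lay far under it. The mean was 52.8 ± 33.2 FPKM against 110.0 ± 16.1 (SD, n = 3), a ratio of 0.48. The log2 fold change of FPKM + 1 was -1.20 ± 0.37 (SE) with a 95% interval of -2.07 to -0.33, and limma gave an unadjusted p of 0.0137 and an adjusted p of 0.251. Ccn1 ranked at 617 among the 11422 genes by p. Leaving out VNS-TAC 1 gave -1.67 and leaving out VNS-TAC 3 gave -0.92. With each library weighted by its spread around its group, Ccn1 was the 1 gene of the 8 to pass (-1.44, limma adjusted p = 0.00782), in a fit where 6.65% of all genes passed as lower.

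Ccn2 encodes the related protein CTGF, which promotes matrix production, and lies on chromosome 10 from 24595442 to 24598683. It was the most abundant of the 8 genes. Its level was 134.2, 84.6 and 457.7 FPKM in VNS-TAC 1, 2 and 3, against 166.8, 165.6 and 290.2 in Ctrl-TAC. The groups overlapped, with VNS-TAC 2 the lowest of the 6 libraries and VNS-TAC 3 the highest. The means were 226 ± 203 and 208 ± 71.6 FPKM (SD, n = 3). Limma gave a log2 fold change of -0.21 ± 0.58 (SE), with an interval of -1.56 to 1.14 that holds large differences in both directions (adjusted p = 0.878). Without VNS-TAC 2 the value was 0.31, and without VNS-TAC 3 it was -0.90.

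Ccn1 and Ccn2, targets of the same coactivators, thus parted within VNS-TAC 3. Ccn2 over Ccn1, a ratio that no scaling of a library alters, stood at 14.5 in VNS-TAC 3 and 1.47 to 2.37 in the other 5 libraries. In VNS-TAC 2 both genes were low and their ratio was 2.37, close to the 2.29 of Ctrl-TAC 3.

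**Figure D1:**
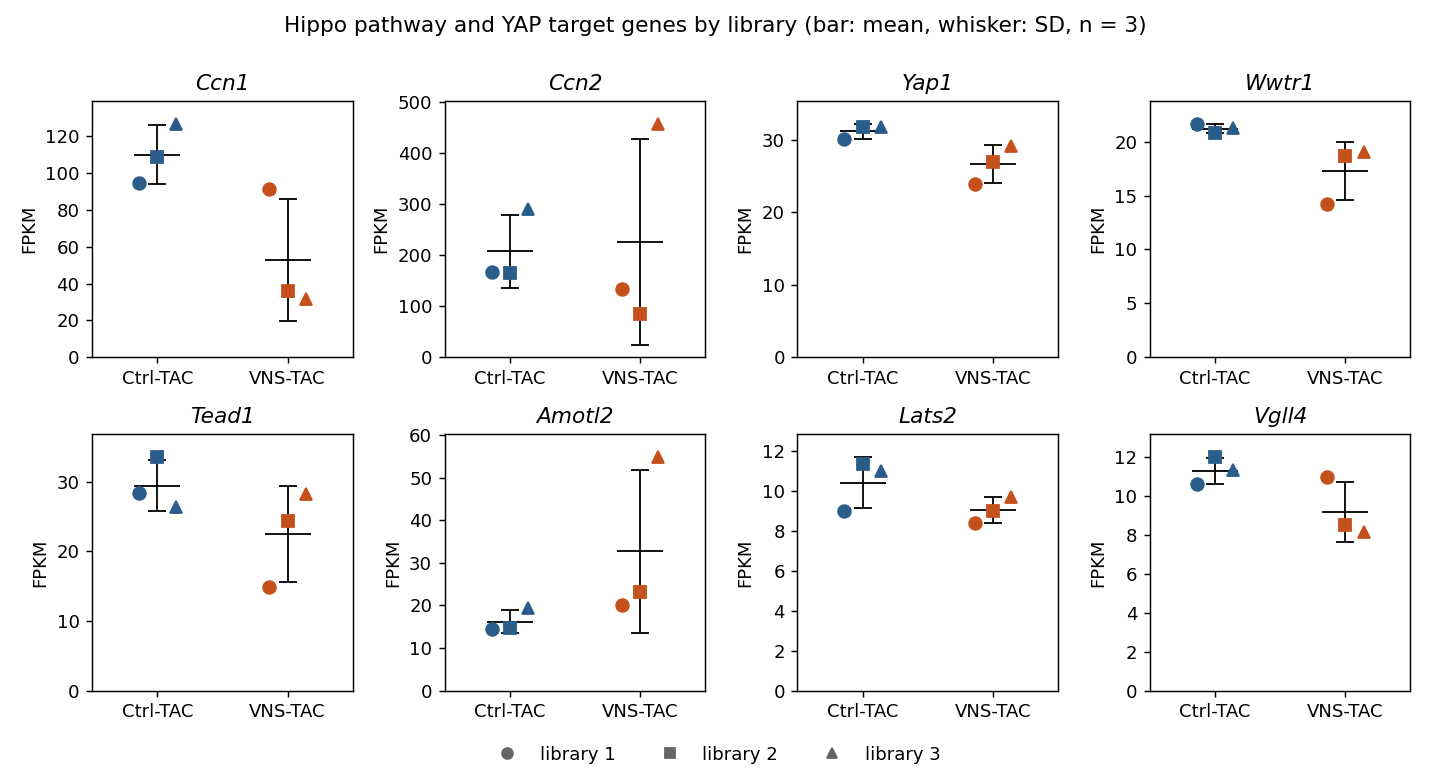
Level of the 8 genes in FPKM (vertical axes, from 0) in each Ctrl-TAC and VNS-TAC library (horizontal axis; shapes give the library number), with the group mean (bar) and SD (whisker, n = 3). Ccn1, Yap1 and Wwtr1 lie lower in all VNS-TAC libraries than in any Ctrl-TAC library and Amotl2 lies higher, while Ccn2 spans 84.6 to 457.7 FPKM within VNS-TAC.

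Amotl2 encodes an angiomotin-like protein of cell junctions that binds YAP and holds it in the cytoplasm, and it is itself a YAP target. It lies on chromosome 9 from 102717091 to 102733418. Its level was 20.2, 23.1 and 54.8 FPKM in VNS-TAC 1, 2 and 3, against 14.4, 14.8 and 19.4 in Ctrl-TAC. All 3 VNS-TAC libraries were above the controls, VNS-TAC 1 by little and VNS-TAC 3 by far. The mean was 32.7 ± 19.2 FPKM against 16.2 ± 2.76 (SD, n = 3), a ratio of 2.02. On the log2 scale the difference was 0.84 ± 0.35 (SE) with an interval of 0.02 to 1.66 (limma unadjusted p = 0.0458, adjusted p = 0.325), and 0.41 without VNS-TAC 3. Amotl2 alone of the 8 genes was higher in VNS-TAC by its mean on the log2 scale. The mean FPKM of Ccn2 was higher too, through VNS-TAC 3.

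Divided by Ccn1, Amotl2 stood at 0.136 to 0.153 among the controls and at 0.222, 0.647 and 1.73 in VNS-TAC 1, 2 and 3, with no overlap. Relative to Yap1, Amotl2 stood at 0.844, 0.858 and 1.88 against 0.465 to 0.609. Both ratios were chosen after the values were seen and are descriptions. Amotl2 did not overlap as higher, and Ccn1 and Yap1 did not overlap as lower, so neither ratio could overlap. The lack of overlap in the ratios therefore restates those differences and adds no further result.

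Lats2, on chromosome 14 from 57689662 to 57746212, encodes one of the 2 kinases that phosphorylate YAP and TAZ, and it is a target of YAP too. The VNS-TAC libraries held 8.38, 9 and 9.68 FPKM, and the Ctrl-TAC libraries 8.98, 11.4 and 10.99. The groups overlapped, since Ctrl-TAC 1 fell among the VNS-TAC libraries. Its log2 fold change was -0.19 ± 0.14 (SE; limma adjusted p = 0.518), with an interval of -0.50 to 0.13. Its paralogue Lats1 was lower in level, at 2.23, 3.17 and 4.1 FPKM against 3.92, 4.15 and 3.25, and overlapped as well.

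Yap1 encodes the coactivator YAP and lies on chromosome 9 from 7931999 to 8004638. Libraries 1, 2 and 3 of VNS-TAC held 23.97, 26.9 and 29.1 FPKM, against 30.1, 31.8 and 31.8 among the controls. Every VNS-TAC library was under every control, VNS-TAC 3 and Ctrl-TAC 1 being the nearest pair. The mean was 26.7 ± 2.59 FPKM against 31.2 ± 1.01 (SD, n = 3), a ratio of 0.854 and a log2 fold change of -0.22 ± 0.12 (SE; interval -0.50 to 0.05; limma adjusted p = 0.398).

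Wwtr1 encodes TAZ, the paralogue of YAP, and lies on chromosome 3 from 57455644 to 57575910. The VNS-TAC libraries held 14.2, 18.6 and 19.1 FPKM and the controls 21.7, 20.8 and 21.3, again with no overlap. Limma gave a log2 fold change of -0.29 ± 0.14 (SE; interval -0.62 to 0.04; adjusted p = 0.365). Wwtr1 over Yap1 overlapped between the groups, ranging from 0.594 to 0.693 under VNS and from 0.653 to 0.72 among the controls.

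Tead1 encodes the TEAD factor with the highest level in these hearts and lies on chromosome 7 from 112679356 to 112906784. VNS-TAC 1, 2 and 3 held 14.9, 24.4 and 28.2 FPKM, and the controls 28.3, 33.5 and 26.3. The groups overlapped, and VNS-TAC 1 stood apart at the low end. Its log2 fold change was -0.41 ± 0.23 (SE; interval -0.96 to 0.13; limma adjusted p = 0.42), and -0.15 without VNS-TAC 1. The other TEAD genes had lower levels, with Tead3 at 6.34 to 10.8 FPKM over the 6 libraries, Tead2 at 3.55 to 4.66 and Tead4 at 1.29 to 1.88.

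Vgll4, on chromosome 6 from 114860621 to 114970007, encodes a cofactor that competes with YAP for TEAD. The VNS-TAC libraries held 10.97, 8.51 and 8.13 FPKM and the controls 10.6, 11.99 and 11.3. VNS-TAC 2 and VNS-TAC 3 were under the controls and VNS-TAC 1 was among them. The difference on the log2 scale was -0.28 ± 0.14 (SE; interval -0.62 to 0.06; limma adjusted p = 0.384). Vgll1, Vgll2 and Vgll3 averaged under 1 FPKM and were not tested.

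Within VNS-TAC, Yap1, Wwtr1, Tead1, Lats2 and Amotl2 were lowest in VNS-TAC 1 and highest in VNS-TAC 3, while Ccn1 and Vgll4 were highest in VNS-TAC 1 and lowest in VNS-TAC 3. Against the Ctrl-TAC mean, VNS-TAC 1 differed by -0.37, -0.55 and -0.93 on the log2 scale for Yap1, Wwtr1 and Tead1. In VNS-TAC 3 they differed by -0.10, -0.15 and -0.05. Transcripts of Yap1, Wwtr1 and Tead1 had a GC content of 45.2%, 43.9% and 46.5%, in the lower part of the tested genes (percentiles 24.9, 18.7 and 30.8). With the trend on GC content taken out of each library, the log2 fold changes were -0.05 for Yap1, -0.08 for Wwtr1 and -0.27 for Tead1, against -1.20 for Ccn1 and 0.81 for Amotl2.

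**Figure D2:**
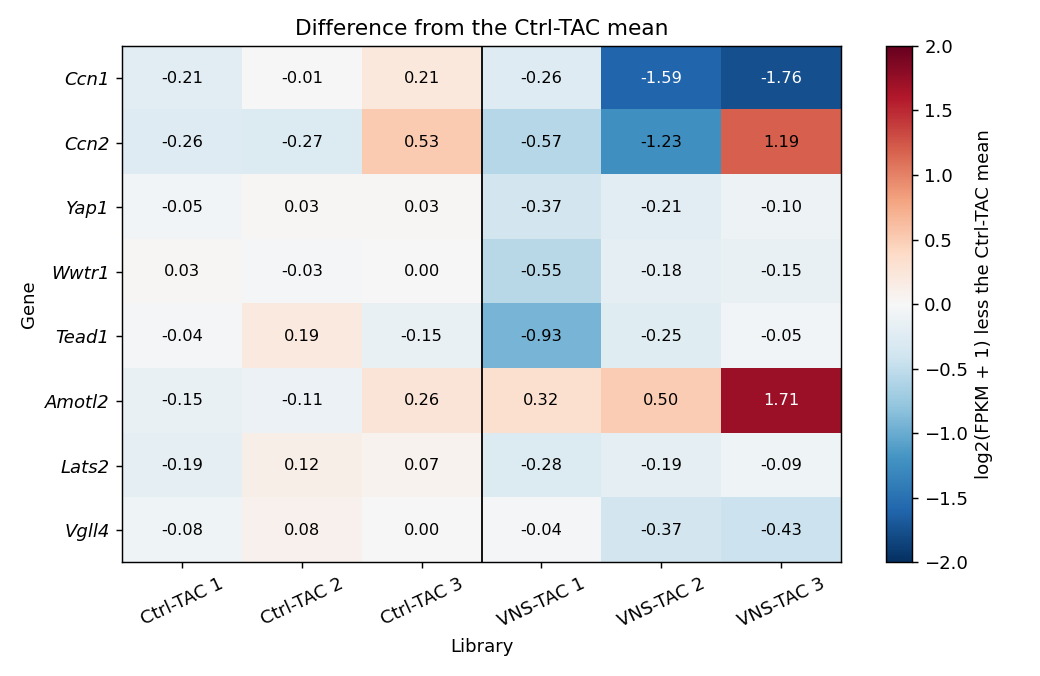
Difference of each gene (rows) in each library (columns) from its Ctrl-TAC mean, in log2(FPKM + 1); red is higher and blue is lower, and the number in a cell is the difference. In VNS-TAC 3 Ccn1 is at -1.76, Amotl2 at 1.71 and Ccn2 at 1.19, and in VNS-TAC 2 Ccn1 is at -1.59 and Ccn2 at -1.23.

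Of the 8 genes, 7 were lower on average on the log2 scale in VNS-TAC, where 61.8% of all tested genes were, and their median log2 fold change was -0.25 against -0.08 over all tested genes. An unadjusted p under 0.05 was reached by 2, Ccn1 (lower) and Amotl2 (higher), which is 1 of 8 in each direction, and an adjusted p under 0.05 by none (percent of all genes: 0). One gene is 12.5% of the 8, so a single gene sets each of these shares. The groups did not overlap for 3 lower genes (Ccn1, Yap1 and Wwtr1; 17.4% of all genes) and 1 higher gene (Amotl2; 8.01% of all genes). The number with an unadjusted p under 0.05 was 6 without VNS-TAC 3 and 1 without VNS-TAC 2 or without any 1 of the controls, so it depended on single libraries. It stayed at 2 in limma with no filter, with equal FPKM sums and with the GC trend taken out, but the genes changed. In these 3 fits the unadjusted p of Amotl2 was 0.0804, 0.0793 and 0.0589. In its place Yap1 had an unadjusted p of 0.0492 with no filter. In the last 2 of these fits it was Vgll4, at 0.0326 and 0.0408.

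The 8 genes also differed in how much they varied. In Ctrl-TAC the coefficient of variation was 2.06% for Wwtr1 and 3.24% for Yap1, and up to 34.5% for Ccn2. In VNS-TAC it was 62.9% for Ccn1, 89.9% for Ccn2 and 58.7% for Amotl2, and 9.72% for Yap1. By level per length, Ccn2 was above Ccn1 and Ccn1 above Yap1 in all 6 libraries, although the ranges over libraries overlapped. Wwtr1 and Vgll4 were the only neighbours in the order of mean levels whose ranges did not overlap, at 14.2 to 21.7 and 8.13 to 11.99 FPKM. Tead1, Amotl2 and Wwtr1 changed places between libraries.

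**Figure D3:**
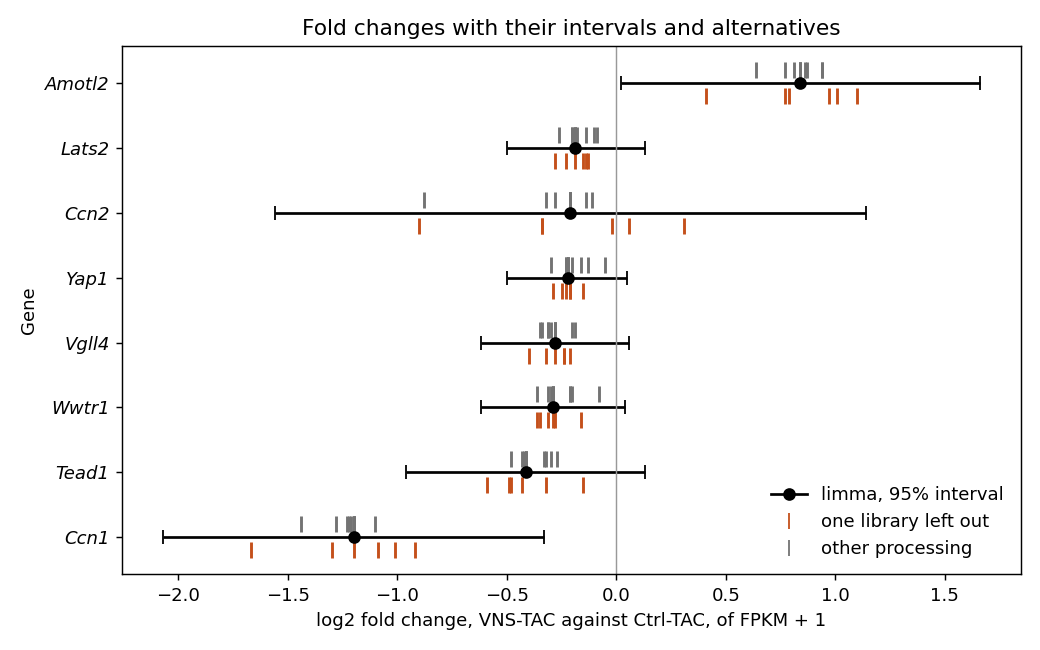
Log2 fold change of FPKM + 1 in VNS-TAC against Ctrl-TAC (horizontal axis) for the 8 genes (vertical axis), with limma's value and 95% interval in black, values with one library left out in orange and values under other processing in grey. The intervals of Ccn1 and Amotl2 lie to one side of 0, and the value of Ccn2 ranges from -0.90 to 0.31 as single libraries are left out.

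The rest of the pathway was described through lists. Of 23 kinase and adaptor genes 21 were tested, and 20 of them were lower on average, against 61.8% of all genes. The list's median log2 fold change was -0.22. An unadjusted p under 0.05 was reached by 5 lower genes (23.8%, against 11.3% of all genes) and by no higher gene, and an adjusted p under 0.05 by none. Mob1a, an activator of the LATS kinases, was at 6.74, 8.77 and 7.42 FPKM against 10.7, 13.6 and 11 FPKM. Map4k4, a kinase that acts on LATS beside Stk3 and Stk4, was at 24.2, 28.3 and 26.1 FPKM against 36.3, 38.3 and 36.1. Both were among the genes named by smallest p, and neither overlapped between groups. Of the tested genes of the list, 8 did not overlap as lower (38.1%, against 17.4% of all genes). The log2 fold changes of Mob1a and Map4k4 were -0.56 and -0.48 (limma adjusted p = 0.232 and 0.212). Frmd6 and Taok1, both upstream activators, had log2 fold changes of -0.45 and -0.51.

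Stk3, Stk4 and Sav1, the upper part of the core cascade, overlapped between groups. Stk3 was at 0.88, 1.83 and 2.58 FPKM against 2.61, 3.38 and 2.47, and Stk4 at 3.8, 4.8 and 4.75 against 5.11, 4.59 and 5.05. Sav1, the scaffold of both kinases, was at 12.4, 13.6 and 16.5 FPKM against 14.0, 14.6 and 13.8. For Stk3, VNS-TAC 1 stood apart at the low end. Nf2, which encodes the upstream regulator merlin, was at 41.3, 39.9 and 27.1 FPKM against 41.6, 44.4 and 46.8, without overlap but with VNS-TAC 1 next to Ctrl-TAC 1. With the GC trend taken out, 15 of the 21 kinase and adaptor genes were lower (49.8% of all genes), and without VNS-TAC 1 it was 16 (56.6% of all genes).

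Among 21 genes of upstream and junction inputs, 12 were lower and 9 higher on average (median log2 fold change -0.05), where 61.8% of all genes were lower. An unadjusted p under 0.05 was reached by 3 in each direction, which is 14.3% of the list, against 11.3% of all genes lower and 3.79% higher. Strn3, a subunit of the phosphatase complex that opposes the Hippo kinases, was at 13.0, 23.9 and 21.8 FPKM against 31.9, 36.0 and 27.9 (log2 fold change -0.72). Dchs1, a giant cadherin, was at 3.50, 2.34 and 1.47 FPKM against 4.86, 4.11 and 3.73 (-0.64). Ctnna3, the alpha-catenin of the intercalated disc, had a log2 fold change of -0.40. The 3 higher genes were Amotl2, Ajuba and Limd1. Ajuba and Limd1 encode LIM proteins that bind and inhibit the LATS kinases. Ajuba was at 4.6, 3.76 and 4.8 FPKM against 2.80, 3.11 and 3.23 (log2 fold change 0.41; limma adjusted p = 0.263). Limd1, which was picked with its values known, had 20.9, 27.2 and 32.5 FPKM against 17.8, 18.6 and 20.8. Of the paralogues of Amotl2, Amot was at 1.88, 3.55 and 3.48 FPKM against 4.47, 4.28 and 4.10, lower in every VNS-TAC library than in any control. Amotl1 was at 10.2, 13.1 and 21.5 against 13.3, 16.0 and 14.4, overlapping the controls but, like Amotl2, with VNS-TAC 3 the highest of the 6 libraries. Whether the paralogues differ from Amotl2 in their response was not tested.

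Of the 22 listed YAP and TAZ targets 20 were tested. On average 17 were lower and 3 were higher, where 61.8% of all genes were lower. The median log2 fold change was -0.21. Of the lower genes 4, which is 20% of those tested, and 1 of the higher genes had an unadjusted p under 0.05, against 11.3% of all genes lower and 3.79% higher. Beside Ccn1 these were Tgfb2, Myof, Ccdc80 and, as the higher gene, Amotl2. Tgfb2, a TGF-beta ligand, had a log2 fold change of -0.62, Myof, a membrane repair protein, of -0.44 and Ccdc80, a matrix protein of fibroblasts, of -0.69. Dock5, an exchange factor for Rac and the next by p, was at 1.84, 1.77 and 1.2 FPKM against 2.2, 2.35 and 2.23. Without VNS-TAC 1 the median of the list was -0.06.

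Ankrd1, a YAP target with a high level in cardiomyocytes, had 2480, 1719 and 1759 FPKM in the controls, against 502, 1098 and 2746 under VNS. VNS-TAC 3 was thus the highest library and VNS-TAC 1 the lowest. Axl, a receptor tyrosine kinase and target, was at 35.8, 37.3 and 32.6 FPKM against 33.0, 35.3 and 37.6, a narrow range in both groups. Igfbp3, also picked with its values known, had 17.4, 24.7 and 65.9 FPKM against 21.6, 16.8 and 16.9. The targets therefore did not share one pattern over the VNS-TAC libraries. In VNS-TAC 3 Ccn2, Amotl2, Ankrd1 and Igfbp3 were at their highest of the 6 libraries. Ccn1, Tgfb2, Myof, Ccdc80, Dock5 and Axl were at their lowest there, some of them by little. Axl was at 32.6 FPKM in VNS-TAC 3 against 33.0 in Ctrl-TAC 1, and Tgfb2 at 3.22 against 3.39 in VNS-TAC 1.

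**Figure D4:**
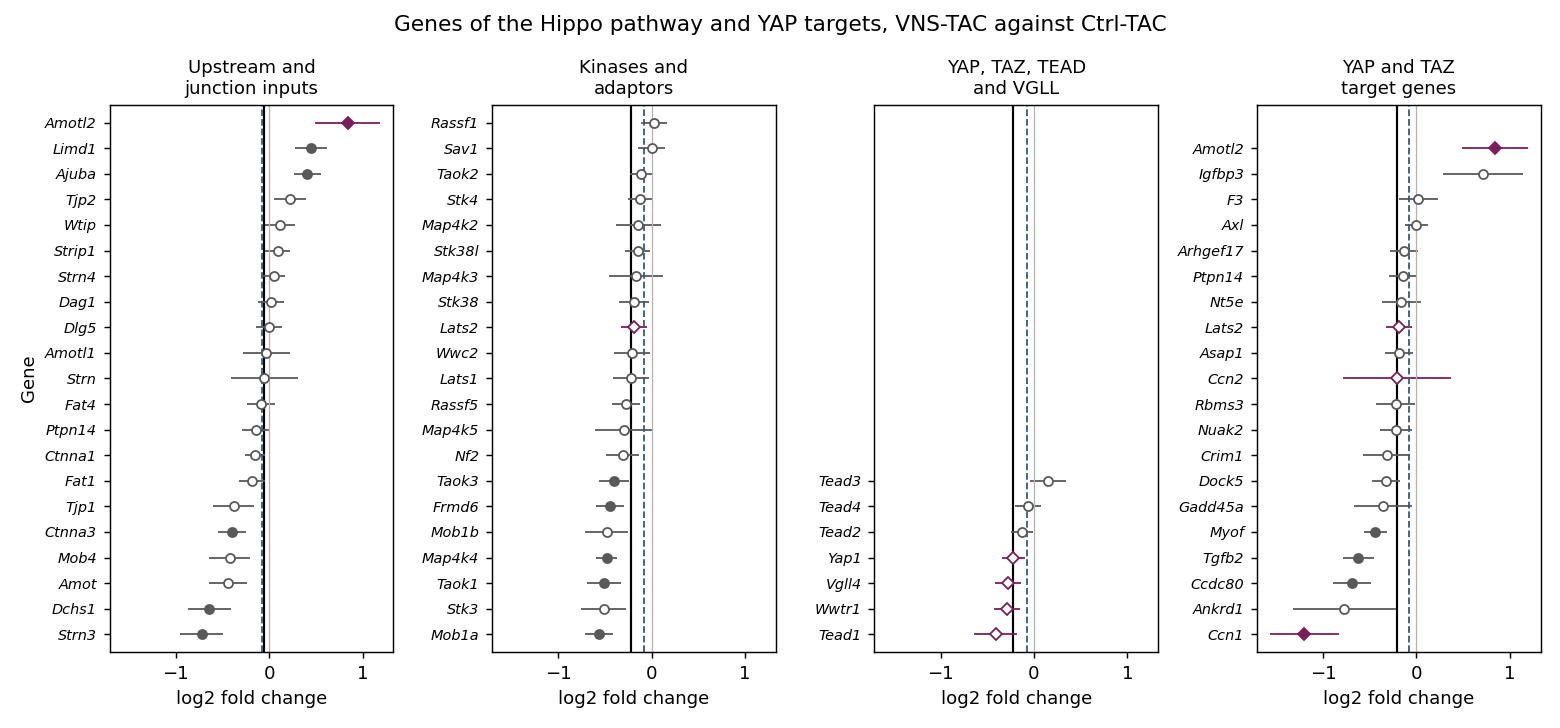
Log2 fold change in VNS-TAC against Ctrl-TAC (horizontal axes, whiskers 1 SE) of the tested genes of 4 lists (vertical axes); diamonds are the 8 genes, filled symbols have an unadjusted limma p under 0.05, the black line is the list's median and the dashed line the median of all tested genes at -0.08. Kinase and adaptor genes lie mostly under 0 with a median of -0.22, and the targets run from -1.20 (Ccn1) to 0.84 (Amotl2).

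Ccn1 is also an immediate early gene, a gene switched on within minutes of a stimulus without new protein, and its values were set beside those of a list of 21 such genes. Of the 20 tested, 18 had a lower mean in VNS-TAC, against 61.8% of all genes, and the list's median log2 fold change was -0.47. An unadjusted p under 0.05 was reached by 8 of these lower genes, 40% of those tested against 11.3% of all genes, and an adjusted p under 0.05 by none. Without VNS-TAC 3, 13 were lower, against 63.8% of all genes. Egr2 (log2 fold change -1.74), Fosb (-3.06), Egr3 (-1.67) and Atf3 (-1.39) had the smallest p. Each of these transcription factor genes was lower in every VNS-TAC library than in any control, which follows in part from picking them by p. Of the tested genes of the list, 6 did not overlap as lower (30.0%, against 17.4% of all genes).

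Egr1 and Fos were picked for this comparison with their values known. Egr1 had 41.7, 9.86 and 6.07 FPKM in the VNS-TAC libraries against 31.9, 47.6 and 40.6. Fos was at 16.2, 1.8 and 1.23 FPKM against 6.44, 12.2 and 10.04. Like Ccn1, both were near or above the control level in VNS-TAC 1 and far under it in VNS-TAC 2 and VNS-TAC 3. Other genes of the list differed. The 2 with a higher mean in VNS-TAC were Junb (log2 fold change 0.29) and Zfp36 (0.37). Junb was at 52.5, 15.0 and 29.5 FPKM against 27.3, 25.2 and 18.4. Ccn1 over Egr1 was 2.18, 3.62 and 5.21 in the VNS-TAC libraries and 2.29 to 3.12 among the controls. Over the 6 libraries the Pearson correlation of log2 values with Egr1 was 0.974 for Ccn1, -0.222 for Ccn2 and -0.841 for Amotl2, as a description of these libraries. The part of early gene induction in the Ccn1 values was not tested.

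**Figure D5:**
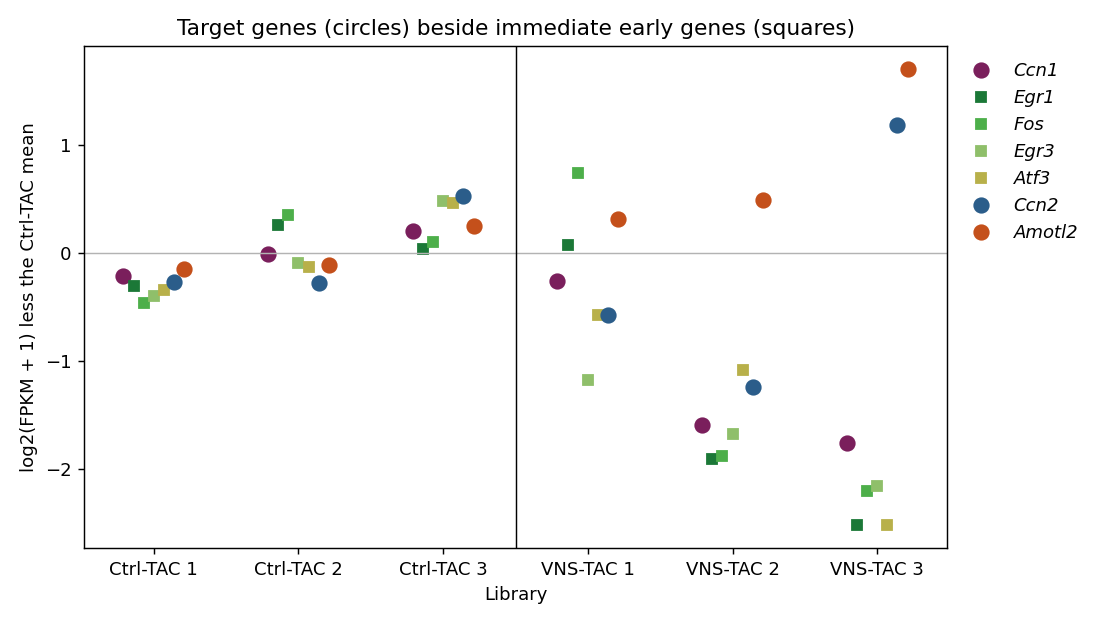
Difference from the Ctrl-TAC mean in log2(FPKM + 1) (vertical axis) by library (horizontal axis) for Ccn1, Ccn2 and Amotl2 (circles) and the early genes Egr1, Fos, Egr3 and Atf3 (squares). The early genes drawn were picked with values known or by smallest p, and others of their list differed. In VNS-TAC 2 both Ccn1, at -1.59, and Ccn2, at -1.23, lie among the early genes drawn. In VNS-TAC 3 Ccn1, at -1.76, lies under 0 but above each early gene drawn, while Ccn2 and Amotl2 lie above 0.

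Markers of cell types were set beside these results. All 11 fibroblast markers were lower on average, against 61.8% of all genes, with a median log2 fold change of -0.86. Their summed level was 835 to 1250 FPKM in VNS-TAC against 1310 to 1350 in Ctrl-TAC, and none was at 0. Set against the controls, their median was -0.33, -0.50 and -1.76 over the VNS-TAC libraries, so VNS-TAC 3, which had the most Ccn2, had the lowest median of this list. Its members differed there: Dcn, at 387.7 FPKM in VNS-TAC 3, was the highest of all 6 libraries and Pdgfra, at 8.8 FPKM, lay within the controls. Atrial markers summed to 3870 to 9160 FPKM in VNS-TAC and 3080 to 9940 in Ctrl-TAC, with Bmp10 at 0 in 1 library. Their median difference was -0.48, -0.05 and 0.46 over the VNS-TAC libraries and 0.06, -1.02 and 0.88 over the controls, so each group had its highest atrial level and its highest Ccn2 in library 3.

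Endothelial markers summed to 378 to 419 FPKM against 425 to 479, with 8 of 10 lower, where 61.8% of all genes were lower. Smooth muscle and pericyte markers had 9 of 10 lower and a median of -0.48, and their sum, in which Des is the largest, was 1360 to 1740 FPKM against 1330 to 1430. Cardiomyocyte markers summed to 40200 to 58400 FPKM against 45200 to 46400, macrophage markers to 245 to 459 against 354 to 386, and epicardial markers to 5.08 to 14.5 against 5.25 to 11.8. Neutrophil markers summed to 48.8 to 105 FPKM against 2.78 to 6.69, with 4 of 10 at 0 in at least 1 library, and haemoglobin and Alas2 to 25.1 to 1500 against 183 to 578. The part of cell composition in the values of the 8 genes was not tested.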

How the data were processed

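The deposited table gives FPKM values, per the file headers, computed by the authors to 2 decimals for 6 heart libraries. Per the submitters' processing notes, the tools were HISAT, featureCounts 1.5.0-p3 and DESeq 1.8.3, and the genome GRCm38, with no role stated. No annotation or strand setting is stated, so overlapping genes and close copies such as Mob1a and Mob1b may share reads. Symbols came from RefSeq (17890 IDs) and GENCODE M21 (15), and 114 IDs had none. Groups come from the sample titles, since the treatment label reads VNS for all 6 samples, controls included. VNS-TAC columns are numbered 1 to 3 where the labels' library names run from 4 to 6. Nothing says that libraries came from separate animals, so p-values measure the spread between libraries.

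Values were analysed as log2(FPKM + 1), which understates the change of low genes, for genes whose mean reached 1 FPKM. Groups were compared with limma 3.58.1 in R 4.3.3 (intensity trend, Benjamini-Hochberg over 11422 genes, threshold 0.05). An exact permutation test of 3 against 3 cannot give a p under 0.1. The 8 genes, the lists and the motifs were chosen with earlier results of these data known, and no list was tested. Beside the 8 genes, the text names by rule up to 4 genes a list by smallest unadjusted p and, whatever their values, the paralogues of the 8 genes, Stk3, Stk4, Sav1, Nf2, Mob1a, Mob1b, Ankrd1, Axl and cell type markers. Limd1, Igfbp3, Egr1, Fos, Junb, Zfp36 and Srf were named with their values known. In 10 simulations of VNS-TAC against Ctrl-TAC on 11422 genes, limma recovered 79.2% of changes of 1 on the log2 scale and 98.8% of changes of 2. There were 10.4 false calls on average beside 200 changed genes. The simulated noise of a gene had the same spread in every library and was independent between genes. The real VNS-TAC libraries correlated less with each other (0.941 to 0.979) than the controls did (0.988 to 0.992). The simulated rates therefore do not give the power of the real comparison. Python 3.11.15, pandas 2.3.3, numpy 2.4.6 and matplotlib 3.10.9 were used.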

Additional observations from a re-analysis of the deposited data

How the results depend on the processing

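Of 136 values of the 8 genes under 17 alternatives each, 133 kept their direction and their side of the adjusted threshold. None of the 8 passed in the main fit, so a side could change only by a gene passing. The count does not follow the size of a change. With the GC trend removed, Yap1 went from -0.22 to -0.05 and Wwtr1 from -0.29 to -0.08, and both were counted as kept. Ccn2 (-0.21) turned to 0.31 without VNS-TAC 2 and to 0.06 without Ctrl-TAC 3, and ranged from -0.90 to 0.31 with a library left out. Array weights put Ccn1 past the threshold (log2 fold change -1.44, limma adjusted p = 0.00782), with 6.65% of all genes lower and past it. They made 1 of the 8 genes pass, 7 have an unadjusted p under 0.05 and 1016 of all genes pass, with weights of 0.246 and 0.247 for VNS-TAC 1 and VNS-TAC 3 against 2.82 for VNS-TAC 2. The adjusted p of Ccn1 ranged from 0.00782 to 0.711. With a library left out, 1 to 6 of the 8 genes had an unadjusted p under 0.05, 0 passed the adjusted threshold, and 0 to 3 of all genes passed. Of all genes, 1 passed with a mean of at least 5 FPKM, and 2 with size factors, quantile normalization or the GC trend removed. An unadjusted p under 0.05 was reached by 433 genes as higher and 1286 as lower, 906 and 794 with size factors, 907 and 759 after quantile normalization, 213 and 1767 with equal FPKM sums and 702 and 923 with the GC trend removed. For YAP, TAZ, TEAD and VGLL factors the median log2 fold change (-0.22) was -0.17 with no filter, -0.28 with a mean of at least 5 FPKM, -0.13 with size factors, -0.16 after quantile normalization, -0.30 with equal FPKM sums, -0.10 with the GC trend removed, and -0.25 to -0.15 with a library left out. That of upstream and junction inputs (-0.05) was 0.03 with size factors and 0.07 after quantile normalization, and that of YAP and TAZ targets (-0.21) was -0.31 to -0.06 with a library left out. For these changes, the cause was not tested by any further fit. No paired analysis was possible because VNS-TAC columns carry numbers that differ from those of the labels' library names, so a replicate block was not run.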

Other observations

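Genes of the actin cytoskeleton that answer to SRF and its cofactors of the MRTF family, which share inputs with YAP, were also mostly lower in VNS-TAC. Of 16 tested genes 14 were lower on average, against 61.8% of all genes, with a median log2 fold change of -0.35. In limma 5 of the lower genes (31.2%, against 11.3% of all genes) had an unadjusted p under 0.05 and none an adjusted p under 0.05. Cnn1, which encodes calponin of smooth muscle, was at 1.95, 1.14 and 1.54 FPKM against 2.61, 9.98 and 6.57, a log2 fold change of -1.41. Tpm4, a cytoskeletal tropomyosin, was at 47.5, 36.8 and 22.9 FPKM against 64.1, 83.0 and 48.7 (-0.88). Filip1l (-0.84) and Flna, which encodes filamin A (-0.46), did not overlap between groups either. Cnn1, Tpm4, Filip1l and Flna were named by smallest p, and their lack of overlap follows in part from that choice. Of the 16 tested genes of the list, 4 did not overlap as lower, against 17.4% of all genes. Srf itself was at 65.3, 47.3 and 37.0 FPKM against 44.7, 49.8 and 49.0. Several genes of this list are smooth muscle markers too, and Ctrl-TAC 2 was the highest library for Acta2, Tagln and Cnn1, at 81.4, 54.9 and 9.98 FPKM.

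The other CCN genes had lower levels than Ccn1 and Ccn2. Ccn5 was at 7.28, 12.8 and 23.2 FPKM against 20.8, 12.1 and 18.9, and overlapped. Ccn3 was at 1.29, 1.77 and 1.5 FPKM against 2.15, 8.23 and 1.88, with Ctrl-TAC 2 standing apart. It was lower without overlap (as 17.4% of all genes were), by little between VNS-TAC 2 and Ctrl-TAC 3. Ccn4 and Ccn6 averaged under 1 FPKM.

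By Pearson correlation of log2 values over the 6 libraries, the tested genes most like Ccn1 were Sema4a, Degs1 and Clic4 (0.996, 0.992 and 0.99), and those most like Ccn2 were Tox4, Stat2 and Srpr (0.997, 0.987 and 0.986). Those most like Amotl2 were Arhgap9, Zxdc and Ccdc61 (0.996, 0.994 and 0.994), and those most like Yap1 were Spata6, Cbl and Abhd5 (0.999, 0.996 and 0.996). No gene was among the 3 most like more than one of the 4. These values come from 6 libraries and 11422 genes and are given as descriptions.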
